A study of Mus musculus with 63 samples.

Results

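Macrophages of old female mice that carry the R1441C change in Lrrk2 were compared with macrophages of old wild-type B6 females after culture with interferon-γ (IFN-γ). The comparison used 10 of the 63 libraries of the series, 5 labelled knock-in and 5 labelled wild-type, chosen by the names of their columns in the count table. The comparison was repeated without knock-in 4, knock-in 5 and wild-type 2, which leaves 7 libraries, 3 knock-in and 4 wild-type. Its values are given for the main results and for part of the genes. All 10 libraries came from females labelled old, a group that the study's design text puts at 18 to 21 months. All mice received thioglycollate broth (3%) in the peritoneum, which recruits macrophages, and buprenorphine for pain relief, and peritoneal cells were collected after 72 h. Cells that adhered to plastic were kept and cultured for 18 h with 100 U of IFN-γ. Polyadenylated RNA was sequenced from both groups. The labels do not say whether the knock-in allele was on one or both chromosomes, whether a library is 1 animal or a pool, or whether the wild-type mice were littermates. The cells were enriched by adherence and not sorted, so other peritoneal cells could be present. The question behind the series, by its design text, was whether the R1441C variant affects what myeloid cells do, such as presenting antigen, releasing cytokines and engulfing particles, and whether sex and age matter.

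The product of Lrrk2 is a large protein with both a kinase and a GTPase domain, which phosphorylates Rab GTPases on lysosomes and other vesicles. R1441C lies in the GTPase domain and is linked to inherited Parkinson's disease, and macrophages are among the cell types that express the gene well. IFN-γ signals through JAK kinases and turns on guanylate-binding proteins, the machinery of antigen presentation, chemokines and nitric oxide synthase. In the mouse peritoneum, large resident macrophages depend on the factor GATA6, and thioglycollate adds macrophages that derive from blood monocytes.

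The promoters of 5 genes are shown here because the results turn on them. Irak4 was lower in knock-in with and without the 3 libraries. Trpm5, Avil, Gnat3 and Rgs21 were high together in knock-in 1, 2 and 3. Each is 250 bases before and 50 bases after the annotated start, 5′ to 3′ on the gene's own strand, from RefSeq on build GRCm38.p6, which is older than the authors' build. Irak4 lies at chr15:94543410-94543709 on the plus strand and Trpm5 at chr7:143094593-143094892 on the minus strand. Avil lies at chr10:127000459-127000758 and Gnat3 at chr5:17962320-17962619, both on the plus strand, and Rgs21 at chr1:144567618-144567917 on the minus strand. Capitals mark the octamer ATGCAAAT, read on either strand, a sequence that POU-domain factors such as POU2F3 are known to bind.
Irak4: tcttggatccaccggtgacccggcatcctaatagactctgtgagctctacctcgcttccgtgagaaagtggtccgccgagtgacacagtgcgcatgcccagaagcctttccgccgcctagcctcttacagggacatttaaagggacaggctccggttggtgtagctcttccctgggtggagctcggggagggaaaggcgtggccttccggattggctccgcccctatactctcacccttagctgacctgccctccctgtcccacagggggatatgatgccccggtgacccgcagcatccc
Trpm5: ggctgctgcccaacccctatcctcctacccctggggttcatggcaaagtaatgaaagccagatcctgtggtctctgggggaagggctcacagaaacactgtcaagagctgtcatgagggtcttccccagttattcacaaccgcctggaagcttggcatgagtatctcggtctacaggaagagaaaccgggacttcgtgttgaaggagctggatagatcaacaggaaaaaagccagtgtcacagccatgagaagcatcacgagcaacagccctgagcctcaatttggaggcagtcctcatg
Avil: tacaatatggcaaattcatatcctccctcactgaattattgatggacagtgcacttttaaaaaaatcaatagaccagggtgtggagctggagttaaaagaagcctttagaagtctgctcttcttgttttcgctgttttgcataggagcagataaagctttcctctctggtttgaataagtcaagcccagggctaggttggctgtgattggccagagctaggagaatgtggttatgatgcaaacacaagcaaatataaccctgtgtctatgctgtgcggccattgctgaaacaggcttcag
Gnat3: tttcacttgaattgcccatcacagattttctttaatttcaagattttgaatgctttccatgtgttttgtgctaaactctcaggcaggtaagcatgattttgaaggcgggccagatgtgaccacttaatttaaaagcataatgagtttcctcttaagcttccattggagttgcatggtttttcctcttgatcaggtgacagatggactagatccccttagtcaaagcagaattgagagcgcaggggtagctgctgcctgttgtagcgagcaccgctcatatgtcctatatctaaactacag
Rgs21: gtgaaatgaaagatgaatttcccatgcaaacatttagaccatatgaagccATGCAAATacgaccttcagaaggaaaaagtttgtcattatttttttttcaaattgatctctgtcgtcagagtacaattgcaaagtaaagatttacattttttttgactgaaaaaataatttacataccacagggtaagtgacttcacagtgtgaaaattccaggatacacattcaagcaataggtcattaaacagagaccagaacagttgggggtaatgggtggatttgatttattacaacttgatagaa
The octamer was in the window of 1 of 7 genes looked at, Rgs21, where it began 200 bases before the start. The 7 were Trpm5, Avil, Gnat3, Rgs21, Sh2d7, Krt18 and Krt8, picked for their high levels in knock-in 1, 2 and 3. The octamer was in 570 of all 32851 promoters of this length (1.74%). As the 7 were picked from these data, setting them beside all promoters is not a test. CG dinucleotides, which are dense in promoters of broadly expressed genes, numbered 16 in the Irak4 window. They numbered 5 in Trpm5, 2 in Avil, 4 in Gnat3 and 2 in Rgs21, against a median of 7 over all promoters.

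The 10 libraries had 95.0 to 101.2 M counts, and 24074 to 24965 genes were detected in each. Markers that define macrophages were abundant in all 10: Lyz2, a lysozyme, ran from 15900 to 21800 CPM (the count scaled to the library's total after TMM normalization) and Adgre1, which encodes F4/80, from 566 to 1040 CPM. The female transcript Xist was at 144 to 240 CPM in 8 libraries and at 1.69 and 1.55 CPM in knock-in 4 and 5, which are labelled female. Ddx3y, a Y-linked gene, was at 0.624 and 0.601 CPM in the same libraries, at 0.767 to 1.01 CPM in wild-type 1, 2 and 5 and at no more than 0.132 CPM in the rest. Markers of large resident peritoneal macrophages, summed over 17 genes, were at 812 and 841 CPM in knock-in 4 and 5, at 22830 CPM in wild-type 2 and at 2760 to 3538 CPM in the other 7. B cell transcripts, summed over 24 genes, were at 545 and 561 CPM in knock-in 4 and 5, at 3070 CPM in wild-type 2 and at 679 to 1353 CPM elsewhere. Fewer cells of a type and less RNA per cell cannot be told apart in such sums.

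Some libraries of a group also shared the immunoglobulin V segments used by their B cells. Across 191 segments, V usage correlated at r = 0.999 between knock-in 1 and 2, 0.996 between wild-type 3 and 4 and 0.903 between knock-in 4 and 5. The last pair had 1916 and 2077 V-segment counts, against 6669 to 51541 in the other libraries. The other 17 pairs within a group reached at most 0.559 and the 25 pairs across genotypes at most 0.629. Libraries labelled young and IFN-γ matched as well, with r = 0.98 between knock-in 1 and young knock-in 1, and 1.0 between wild-type 3 and young wild-type 2. Knock-in 2 matched young knock-in 1 (0.981), knock-in 3 young knock-in 2 (0.992) and wild-type 4 young wild-type 2 (0.996). Wild-type 5 matched young wild-type 5 (0.964) and wild-type 2 young wild-type 1 (0.937). Knock-in 4, knock-in 5 and wild-type 1 reached at most 0.273, 0.353 and 0.545 with a young library. These are descriptions over segments that share a library. No 2 libraries of a group agreed within sampling noise, since the median squared difference of their counts was 3.47 to 77.33 times that of sampling. The labels do not say which libraries share an animal, and every p-value below treats the libraries as separate samples.

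Gbp2, a guanylate-binding protein that IFN-γ induces, was at 4370 to 6040 CPM in these 10 libraries. It was at 5690 to 7510 CPM in the 10 old females labelled untreated and at 13.5 to 485 CPM in the 8 young females labelled untreated. Gbp2 was thus not higher in the old females labelled IFN-γ than in those labelled untreated. Cxcl9, a chemokine that IFN-γ induces, had a median of 2160 CPM with the IFN-γ label and 1400 CPM with the untreated label, and Nos2, nitric oxide synthase, 281 and 146 CPM, with overlapping ranges for both. The B cell gene Cd79a had medians of 58.0 and 5.98 CPM. Below, the comparison of the 2 is called that of the treatment labels.

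Lrrk2 itself did not pass the test. It was at 111, 108, 127, 105 and 96.1 CPM in knock-in 1 to 5 and at 167, 226, 132, 99.9 and 128 CPM in wild-type 1 to 5. The groups overlapped, and wild-type 2 held the highest value. The log2 change was -0.46 ± 0.24 (SE; edgeR adjusted p = 0.244), and -0.19 ± 0.28 without the 3 libraries (adjusted p = 0.764). The counts do not show the R1441C base change, so Lrrk2 RNA does not check the genotype label.

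With all 10 libraries, 980 of 22147 tested genes were called at an adjusted p under 0.05 (4.42%), 359 of them higher in knock-in (1.62%) and 621 lower (2.8%). Without knock-in 4, knock-in 5 and wild-type 2, 40 genes were called (0.181%), 23 higher (0.104%) and 17 lower (0.0768%). Both comparisons called 30 of these in the same direction, 15 higher and 15 lower, which is 30 of the 980 and 30 of the 40. Among members of the pathway lists below, from IFN-γ response to matrix remodelling, Irak4 alone was called with 7 libraries. Wild-type 2 was the highest of the 10 libraries in 469 of the 621 lower genes (75.5%), against 22.2% of all tested genes. It was the lowest in 254 of the 359 higher genes (70.8%), against 25.3% of all tested genes. Genes picked by direction tend to have a wild-type library at that end, so part of both differences follows from the picking. Leaving out wild-type 2 alone left 40 called genes, 9 higher and 31 lower, and leaving out knock-in 4 and 5 left 152. The count was 1900 without wild-type 1, 2208 without wild-type 4 and 591 without wild-type 5. It was 471, 483, 546, 605 and 319 without knock-in 1 to 5 in turn. In the comparison of 7 libraries it was 653 without wild-type 1, 17 without wild-type 3, and 20, 24 and 8 without knock-in 1, 2 and 3. Of 82 named genes called with all 10 libraries, 8 were still called without wild-type 2: Cacna1h, Derl3, Gnat3, Irak4, Pam, Prickle1, Serinc5 and Slc38a1. The other 74 calls were lost without it, which holds for each of them named below. The change itself was as large or larger without wild-type 2 in 9 of the 74, such as Camk2b (2.55), Cfap74 (1.63) and Scd2 (1.11). The median ratio of the changes without and with it was 0.725. Of 19 named genes called with 7 libraries, Irak4 and Slc38a1 were still called without knock-in 3, and the median ratio of the changes of the 17 lost was 0.942. When only the libraries compared entered the fit, 1 gene was called with 10 libraries and 13 with 7. Of the 82 named calls with 10 libraries, 78 were tested in that fit and 0 were still called. The same held with the replicate number as a block. Of the 19 named calls with 7 libraries, Irak4 and Krt8 were still called with the 7 alone in the fit.

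**Figure D1:**
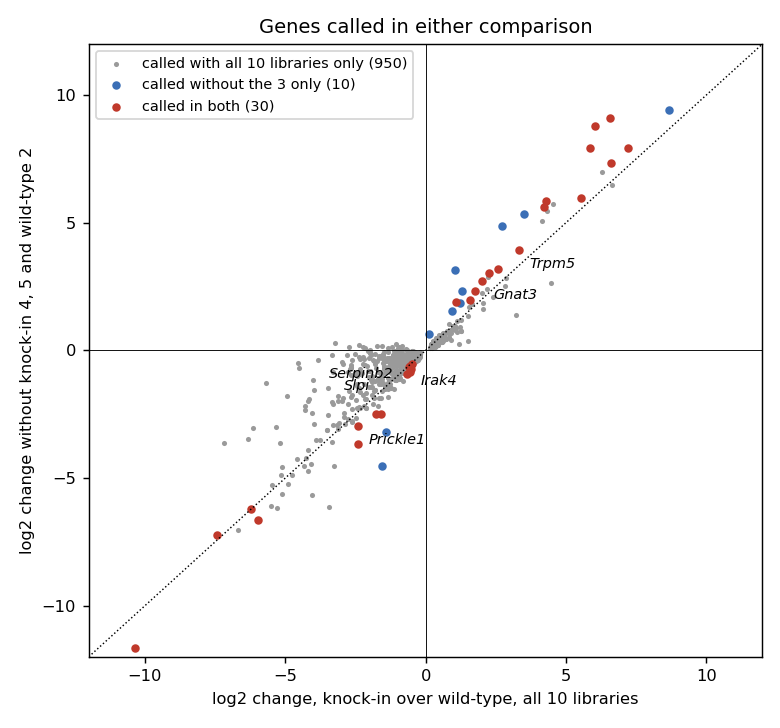
Log2 change of knock-in over wild-type with all 10 libraries (horizontal axis) and without knock-in 4, knock-in 5 and wild-type 2 (vertical axis), 1 point per gene called in either comparison, with the dotted line marking equal change. The 30 genes called in both (red) lie near the line or further from 0 on the vertical axis, and many of the 950 called with all 10 libraries only (grey) lie close to 0 on the vertical axis.

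Irak4 was the gene with the smallest p-value in both comparisons. It encodes the kinase that links Toll-like and interleukin-1 receptors, through MyD88, to the activation of NF-κB. It was at 32.7, 33.8, 30.9, 37.7 and 37.9 CPM in knock-in 1 to 5 and at 44.4, 47.2, 52.8, 52.6 and 56.5 CPM in wild-type 1 to 5. Every wild-type library lay above every knock-in library. The log2 change was -0.55 ± 0.06 (adjusted p = 9.43e-08), and -0.67 ± 0.07 without the 3 libraries (adjusted p = 4.44e-08). Its promoter is printed above. The gene was not called under 2 alternatives with all 10 libraries, where only the 10 libraries entered the fit (adjusted p = 0.074) or the replicate number was a block (adjusted p = 0.272).

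Slc38a1, a sodium-coupled transporter of neutral amino acids such as glutamine, was lower in the same way. Knock-in 1 to 5 had 48.0, 45.8, 48.3, 51.0 and 50.3 CPM, and wild-type 1 to 5 had 73.0, 76.1, 87.3, 65.9 and 67.9 CPM. The groups did not overlap, and the knock-in values lay close together. The log2 change was -0.60 ± 0.08 (adjusted p = 3e-05), and -0.63 ± 0.10 without the 3 libraries (adjusted p = 6.32e-04). Slc38a1 and Irak4 both lie within 10 Mb of Lrrk2. Of the tested neighbours within that distance, 2 were called higher and 14 lower with all 10 libraries (5.56% lower, against 2.8% of all tested genes). With 7 libraries 0 were higher and 3 lower (1.19%, against 0.0768%). The median change of all of them was -0.002 and 0.018 on the log2 scale, against -0.005 and -0.007 over all tested genes. Slc38a1, too, was not called where only the 10 libraries entered the fit (adjusted p = 0.0662) or the replicate number was a block (adjusted p = 0.272).

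The third neighbour called in both comparisons was Prickle1, a protein of planar cell polarity. It was at 0.278, 0.311, 0.366, 0.493 and 0.559 CPM in knock-in 1 to 5 and at 0.388, 0.682, 4.81, 4.00 and 0.728 CPM in wild-type 1 to 5. Wild-type 3 and 4, which share V usage, were far above the other 8 libraries, and the groups overlapped. Its log2 change was -2.40 ± 0.46 (adjusted p = 0.00315), and -2.96 ± 0.57 without the 3 libraries (adjusted p = 0.00635). The second call was lost without wild-type 3 or any 1 of the knock-in libraries. With libraries that share V usage summed, neither was called (adjusted p = 0.0675 and 0.249). The first was also lost with a replicate block (adjusted p = 0.272) or with the 10 libraries alone in the fit (adjusted p = 0.151).

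**Figure D2:**
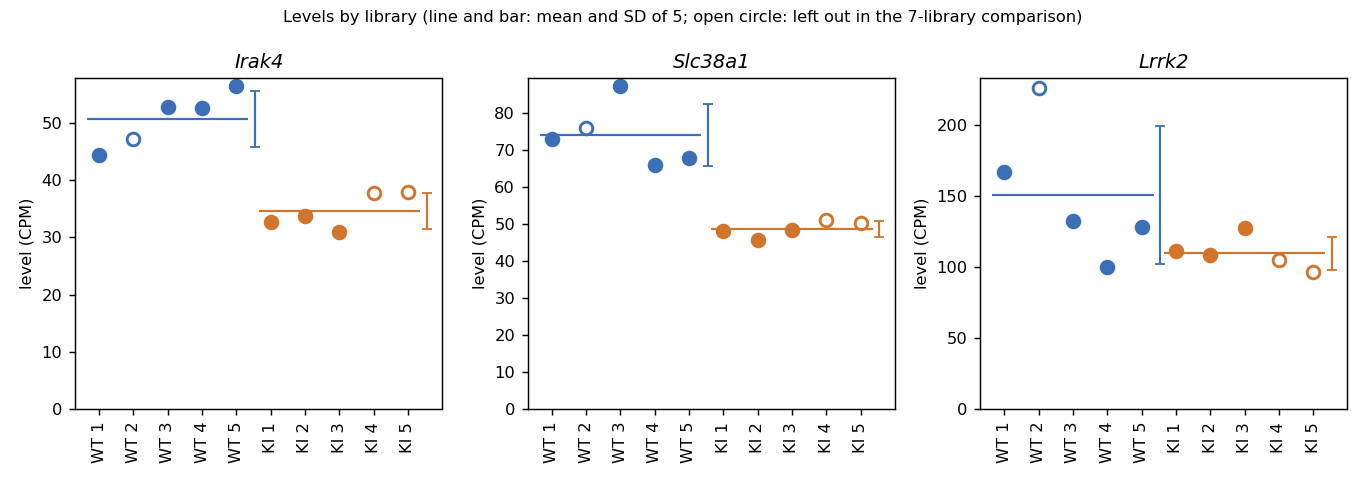
Level in CPM of Irak4, Slc38a1 and Lrrk2 in each library, wild-type in blue and knock-in in orange, with the mean (line) and SD (bar) of 5 libraries. Open circles mark the 3 libraries left out of the 7-library comparison. Irak4 and Slc38a1 do not overlap between the genotypes, and Lrrk2 does.

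The other 5 named genes lower in both comparisons were Serinc5, Pam, Gab1, Klf11 and Zfp951. Serinc5, a membrane protein that restricts retroviral infectivity, was at 6.84 to 12.1 CPM in knock-in and 10.9 to 21.4 CPM in wild-type, a log2 change of -0.68 ± 0.15 (adjusted p = 0.00842). Pam, the enzyme that amidates peptide hormones, was at 18.4 to 25.1 CPM in knock-in and 20.9 to 38.4 CPM in wild-type (-0.52 ± 0.12, adjusted p = 0.0119). Gab1, a docking protein of growth factor receptors, was at 7.49 to 10.1 CPM in knock-in and 8.43 to 13.7 CPM in wild-type (-0.47 ± 0.11, adjusted p = 0.00902). In all 3 the ranges of the 10 libraries overlapped, and they separated once the 3 libraries were left out. Klf11, a zinc-finger repressor, changed by -0.54 ± 0.12 (adjusted p = 0.00842) and Zfp951, a zinc-finger gene, by -0.55 ± 0.16 (adjusted p = 0.0356). Without the 3 libraries the changes of the 5 genes ran from -0.92 ± 0.18 for Serinc5 to -0.55 ± 0.12 for Gab1, with adjusted p-values of 0.0065 for Serinc5 to 0.0336 for Klf11. None of the 5 was called with 7 libraries once knock-in 3 was also left out, where their adjusted p-values were 0.124 to 0.199 and their changes -0.80 for Serinc5, -0.81 for Zfp951, -0.70 for Pam, -0.60 for Klf11 and -0.55 for Gab1.

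The genes that rose in both comparisons included a set known from tuft cells and taste cells, chemosensory epithelial cells of the gut, airway and tongue. Trpm5, the cation channel of taste transduction, was at 1.70, 1.68 and 6.36 CPM in knock-in 1, 2 and 3 and at 0.0329 and 0.0621 CPM in knock-in 4 and 5. In wild-type 1 to 5 it was at 0.0379, 0.136, 0.448, 0.301 and 0.059 CPM. Knock-in 1 to 3 thus lay above all other libraries, and knock-in 4 and 5 lay within or just below the wild-type range. The log2 change was 3.32 ± 0.80 (adjusted p = 0.0137), and 3.94 ± 0.76 without the 3 libraries (adjusted p = 0.00635).

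Avil, which encodes the actin-bundling protein advillin of the tuft cell brush, was at 1.61, 1.55, 8.21, 0.0767 and 0.228 CPM in knock-in 1 to 5. Wild-type 1 to 5 had 0.227, 0.292, 0.653, 0.623 and 0.147 CPM. Its log2 change was 2.59 ± 0.59 (adjusted p = 0.00975), and 3.20 ± 0.53 without the 3 libraries (adjusted p = 6.32e-04). The pattern over libraries was that of Trpm5, with knock-in 3 highest and knock-in 4 and 5 no higher than wild-type. Gnat3, the taste G protein gustducin, was at 0.576, 0.552, 2.52, 0.241 and 0.155 CPM in knock-in 1 to 5 and at 0.133, 0.273, 0.253, 0.193 and 0.147 CPM in wild-type 1 to 5. It changed by 2.01 ± 0.41 (adjusted p = 0.00422), and by 2.74 ± 0.39 without the 3 libraries (adjusted p = 7.23e-05).

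Pou2f3, the factor that specifies tuft cells, was also highest in knock-in 1, 2 and 3 and was chosen after its values were seen. It was at 0.457, 0.562 and 1.58 CPM in knock-in 1, 2 and 3, at 0.0492 CPM in wild-type 5 and at a count of 0 in the other 6 libraries. Its log2 change was 5.55 ± 1.21 (adjusted p = 0.00782), and 5.99 ± 1.05 without the 3 libraries (adjusted p = 0.00266). Rgs21, a regulator of G-protein signalling in taste cells, and Sh2d7, an adaptor of tuft cells, were also chosen after their values were seen. Rgs21 was at 0.437, 0.532 and 1.61 CPM in knock-in 1, 2 and 3 and at a count of 0 in the other 7 libraries. Against a floor of 3 counts over the wild-type group it was at least 88.4-fold higher with all 10 libraries (adjusted p = 0.0563) and at least 115-fold higher without the 3 (adjusted p = 0.00981). Sh2d7 was at 0.159, 0.141 and 1.38 CPM in knock-in 1, 2 and 3, at 0.0195 CPM in wild-type 2 and at a count of 0 elsewhere, at least 74.7-fold higher without the 3 libraries (adjusted p = 0.00269).

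Keratin 18 (Krt18), a keratin of simple epithelium, was at 7.90, 8.81, 10.1, 0.504 and 0.228 CPM in knock-in 1 to 5 and at 0.710 to 3.11 CPM in wild-type. It changed by 1.75 ± 0.54 (adjusted p = 0.0478), and by 2.31 ± 0.45 without the 3 libraries (adjusted p = 0.00768). Its partner Krt8 was at 3.99 to 7.33 CPM in knock-in 1, 2 and 3, at 0.756 and 0.487 CPM in knock-in 4 and 5 and at 1.51 to 1.87 CPM in wild-type, and passed the test without the 3 libraries alone (adjusted p = 0.0336). Of 25 tuft cell and taste genes listed after the first of them had been seen, 23 were tested. With all 10 libraries 6 were called higher and 0 lower, with a median log2 change of 0.419. Without the 3 libraries it was 8 and 0, with a median of 1.124. The shares called were 26.1% and 34.8%, against 4.42% and 0.181% of all tested genes. The list was chosen with these values known and gets no test. Members at higher levels in these cells did not pass, such as the phospholipase Plcb2 (0.22 ± 0.09, adjusted p = 0.139), and Dclk1, a kinase used to mark tuft cells, lay at -0.66 ± 0.59 (adjusted p = 0.551). With all 10 libraries the calls of Trpm5, Avil, Gnat3 and Krt18 were lost without knock-in 3 (adjusted p = 0.109, 0.195, 0.102 and 0.143). With 7 libraries those of all 7 genes from Trpm5 to Krt18, and of Krt8, were lost without it (adjusted p = 0.0523 to 0.192). The changes were then 2.99 for Trpm5, 1.94 for Avil and 1.63 for Gnat3, while Krt18 (2.22) and Krt8 (2.11) stayed about as large. Knock-in 1 and 2 are the pair that shares V usage. Trpm5 was at 0 to 0.0512 CPM in the 10 old IFN-γ males and at 0 to 0.117 CPM in the 10 old untreated females.

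**Figure D3:**
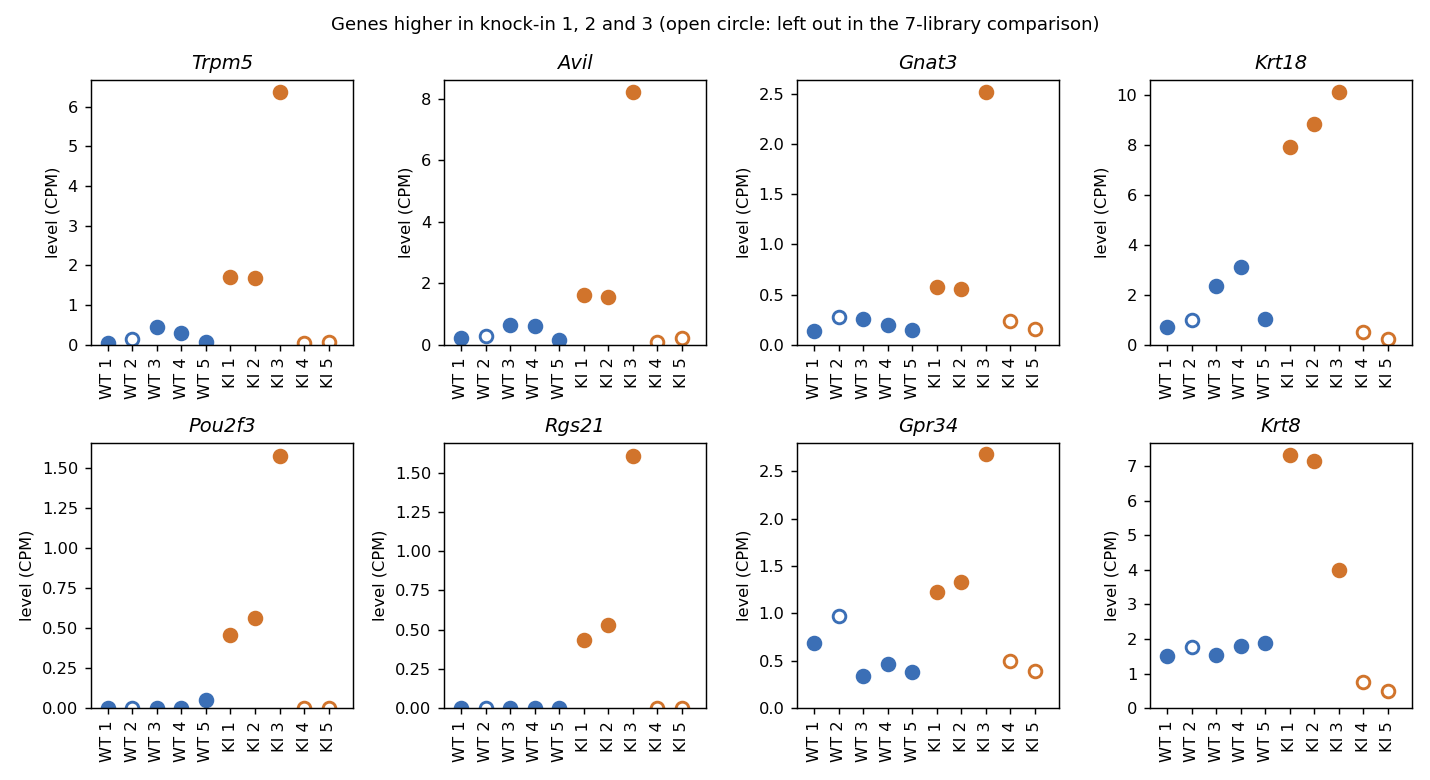
Level in CPM of 8 genes in each library, wild-type in blue and knock-in in orange, with open circles for the 3 libraries left out of the 7-library comparison. Knock-in 1, 2 and 3 stand above the other libraries in all 8 panels, and knock-in 3 is the highest in all but Krt8. Pou2f3, Rgs21 and Krt8 were chosen after their values were seen.

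Gpr34, a receptor for lysophosphatidylserine found on microglia and other myeloid cells, and Cfap74, a protein of motile cilia, were called higher in both comparisons too. Gpr34 was at 1.22, 1.33, 2.68, 0.493 and 0.394 CPM in knock-in 1 to 5 and at 0.341 to 0.974 CPM in wild-type. It changed by 1.10 ± 0.34 (adjusted p = 0.0488), and by 1.89 ± 0.34 without the 3 libraries (adjusted p = 0.00208), calls lost without knock-in 3 (adjusted p = 0.317 and 0.138). Cfap74 was at 0.973 to 2.37 CPM in knock-in and 0.322 to 0.806 CPM in wild-type, with no overlap, a change of 1.56 ± 0.38 (adjusted p = 0.0152). Cfap74 is the one gene among these with knock-in 4 and 5 above every wild-type library.

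Immunoglobulin segments made up 42 of the 980 called genes, 5 higher and 37 lower in knock-in, and 9 of the 40 called without the 3 libraries, 5 higher and 4 lower. Of all 980, 359 were higher and 621 lower, and of all 40, 23 and 17. How many of the tested genes are such segments was not counted, so no excess can be read from these numbers. Among the called segments, 2 show how a call can rest on a pair that shares V usage. Igkv8-30 was at 153.9 and 163.2 CPM in wild-type 3 and 4 and at no more than 0.5064 CPM in the other 8 libraries. Ighv1-63 was at 9.512 and 8.656 CPM in knock-in 1 and 2 and at no more than 0.1461 CPM elsewhere. Both segments were chosen after their values were seen. Near-identical V segments can share reads, and how the authors' counting split them is not given in the sources used here.

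Among the genes lower in knock-in with all 10 libraries, wild-type 2 was the highest library for most of the largest changes. Slpi, a secreted inhibitor of neutrophil proteases, was at 68.4, 66.7, 78.8, 30.7 and 31.7 CPM in knock-in 1 to 5 and at 150, 2200, 111, 136 and 119 CPM in wild-type 1 to 5. The groups did not overlap, and wild-type 2 was far above the other 4 wild-type libraries. The log2 change was -3.29 ± 0.58 (adjusted p = 0.0018), and -0.85 ± 0.44 without the 3 libraries (adjusted p = 0.302). Serpinb2, which inhibits plasminogen activators, was at 83.1 CPM in wild-type 2 and 0.383 to 3.27 CPM in the other 9 libraries. It changed by -3.84 ± 0.87 (adjusted p = 0.00971), and by -0.37 ± 0.75 without the 3 libraries (adjusted p = 0.841).

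The same library was highest in 8 more of the 12 named genes with the largest falls. These were Gp6, the collagen receptor of platelets (8.30 CPM in wild-type 2, 0.0496 to 0.205 elsewhere), and Tph1, which starts serotonin synthesis (5.84 and 0 to 1.23). Fpr1, the receptor for formyl peptides, was at 179 CPM in wild-type 2 and 5.30 to 16.9 CPM elsewhere. Gsta3, a glutathione transferase, was at 18.1 CPM there and 0.207 to 1.53 CPM elsewhere. Ltbp1, which binds latent TGF-β, was at 118 and 0.394 to 12.2 CPM. Sema3c, a secreted guidance protein, was at 34.5 and 0.207 to 2.76 CPM, Mcpt4, a mast cell protease, at 9.69 and 0 to 5.50 CPM, and the vomeronasal receptor Vmn2r26 at 12.9 and 0 to 1.03 CPM. Their log2 changes ran from -4.50 ± 0.90 for Gp6 to -2.67 ± 0.59 for Fpr1 with all 10 libraries. None of these 8 was called without the 3 libraries, where Sema3c (0.14 ± 0.43) and Vmn2r26 (0.28 ± 0.80) had the opposite sign. With wild-type 2 alone left out, Tph1 still changed by -3.01 (from -4.30) and Mcpt4 by -2.51 (from -3.13), both uncalled. Wild-type 3 and 4 lay above every knock-in library in both genes, at 1.23 and 1.08 CPM for Tph1 and 4.16 and 5.50 CPM for Mcpt4.

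The other 2 of the 12 were highest in wild-type 3 and 4. Cacna1h, a T-type calcium channel, was at 3.66 and 2.99 CPM there and 0.0197 to 0.39 CPM in the other 8 libraries. It changed by -4.25 ± 0.90 (adjusted p = 0.00603), and by -4.20 ± 1.11 without the 3 libraries (adjusted p = 0.0903). Derl3, a protein of the endoplasmic reticulum that plasma cells express, was at 4.78 and 5.11 CPM there and 0.131 to 1.29 CPM elsewhere (-3.09 ± 0.59, adjusted p = 0.00319, and -2.85 ± 0.72, adjusted p = 0.0775).

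**Figure D4:**
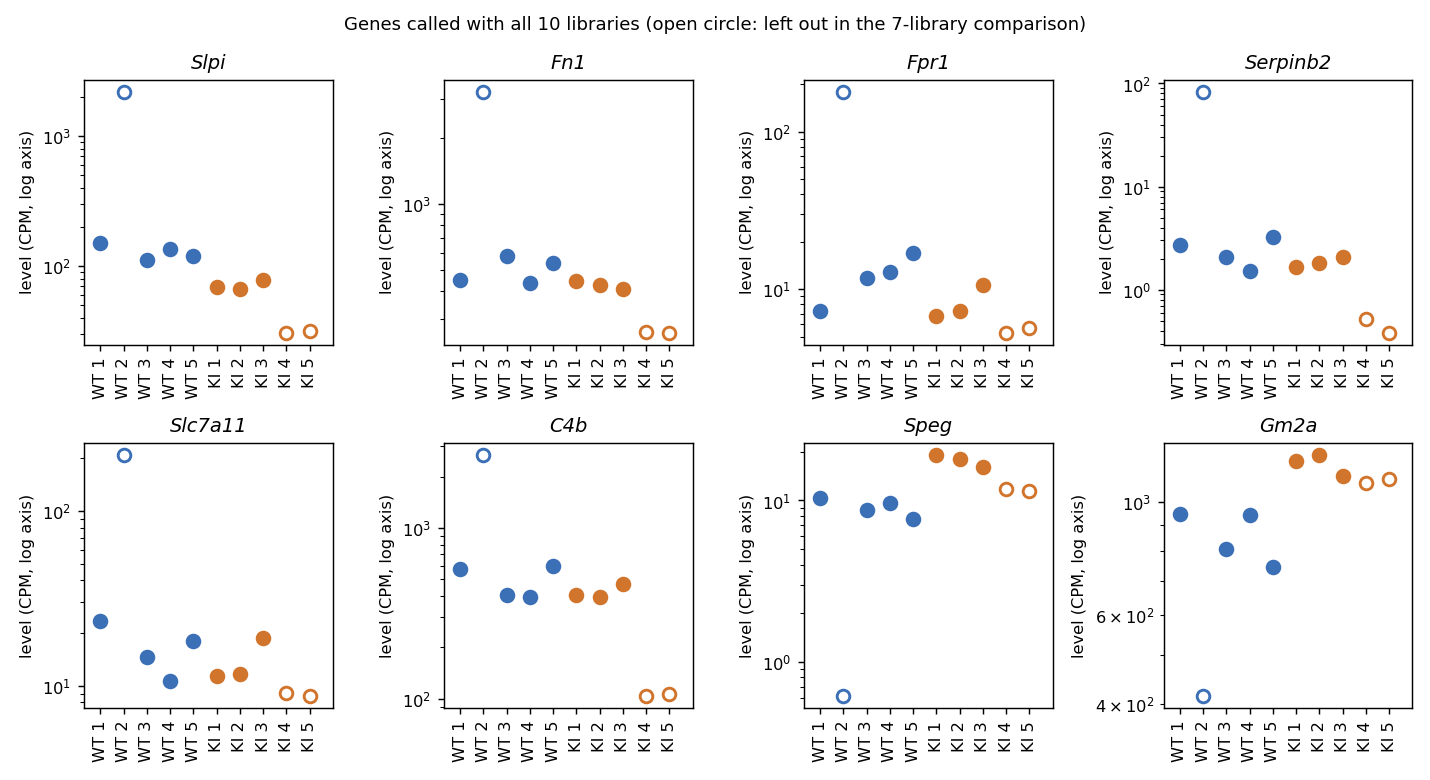
Level in CPM on a log axis of 8 genes called with all 10 libraries, wild-type in blue and knock-in in orange, with open circles for the 3 libraries left out of the 7-library comparison. Wild-type 2 is the highest library for Slpi, Fn1, Fpr1, Serpinb2, Slc7a11 and C4b and the lowest for Speg and Gm2a.

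Genes higher in knock-in with all 10 libraries and not called without the 3 included Camk2b, Trim29, Scd2 and Speg. Camk2b, a subunit of a calcium-dependent kinase, was at 3.92, 3.49, 3.11, 6.52 and 7.17 CPM in knock-in 1 to 5 and at 1.83, 1.31, 0.263, 0.161 and 1.02 CPM in wild-type 1 to 5. All 5 knock-in libraries lay above all 5 wild-type libraries. It changed by 2.39 ± 0.63 (adjusted p = 0.0232), and by 2.09 ± 0.74 without the 3 libraries (adjusted p = 0.156). Trim29, a ubiquitin ligase of innate immunity, was at 3.55 to 5.83 CPM in knock-in and 1.11 to 4.48 CPM in wild-type (1.12 ± 0.25, adjusted p = 0.00862, and 1.15 ± 0.28, adjusted p = 0.0643). Scd2, a fatty acid desaturase, was at 45.3 to 78.5 CPM in knock-in and 18.2 to 38.2 CPM in wild-type (1.03 ± 0.27, adjusted p = 0.0248). Speg, a muscle-type kinase, was at 11.5 to 19.1 CPM in knock-in, 7.73 to 10.4 CPM in 4 wild-type libraries and 0.614 CPM in wild-type 2 (1.04 ± 0.32, adjusted p = 0.0475). Sdk2, Pou3f1 and Slc39a2 had changes of 1.27 ± 0.34, 1.12 ± 0.30 and 1.08 ± 0.26, and each was lowest in wild-type 2.

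Genes that respond to IFN-γ were called at a share near or below that of all genes. Of 44 tested, 1 was higher and 0 lower with all 10 libraries (2.27% called, against 4.42% of all tested genes). With 7 libraries 0 were called, against 0.181% of all, with median log2 changes of -0.024 and 0.137. The one called gene was Irf8, an interferon regulatory factor of the macrophage lineage. It was at 915, 925, 1030, 920 and 952 CPM in knock-in 1 to 5 and at 822, 447, 608, 742 and 602 CPM in wild-type 1 to 5, without overlap. It changed by 0.56 ± 0.12 (adjusted p = 0.00532), by 0.45 without wild-type 2 (adjusted p = 0.0711) and by 0.46 ± 0.13 without the 3 libraries (adjusted p = 0.102). Of 47 type I interferon-stimulated genes, 0 were higher and 1 lower with all 10 libraries (2.13% called), with a median of -0.184. The median without the 3 was 0.103. The called gene was Ddx58, the RNA sensor RIG-I, at 117 CPM in wild-type 2 and 36.4 to 50.4 CPM elsewhere.

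Antigen presentation, which the study set out to examine, showed 1 call. Of 14 tested genes of MHC class II presentation, 1 was higher and 0 lower with all 10 libraries, with a median of 0.072. The share called was 7.14%, against 4.42% of all tested genes. Without the 3 libraries 0 were called (median 0.133). Ifi30, a thiol reductase that unfolds antigens in lysosomes, was at 1160, 1210, 1110, 1020 and 1090 CPM in knock-in 1 to 5. Wild-type 1 to 5 had 974, 611, 727, 919 and 680 CPM, all below knock-in. The log2 change was 0.52 ± 0.11 (adjusted p = 0.00782), and 0.49 ± 0.13 without the 3 libraries (adjusted p = 0.094). Of 24 genes of MHC class I presentation and the immunoproteasome and 23 costimulatory and checkpoint ligands, 0 were called in either comparison.

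Cytokine and chemokine genes were called with all 10 libraries and not without the 3. Of 24 chemokines, 0 were higher and 2 lower (8.33% called, against 4.42% of all tested genes). These were Ccl24 and Cxcl3, which attract eosinophils and neutrophils, at 12.3 and 1.80 CPM in wild-type 2 and at no more than 1.01 and 0.208 CPM in the other libraries. Of 29 macrophage cytokines and growth factors, 1 was higher and 1 lower (6.9% called). Tgfb1, transforming growth factor-β1, was at 328 to 361 CPM in knock-in and 242 to 312 CPM in wild-type (0.33 ± 0.09, adjusted p = 0.0278). Il18, an inflammasome cytokine that induces IFN-γ, was at 6.75 to 8.24 CPM in knock-in and 7.41 to 24.3 CPM in wild-type (-0.76 ± 0.17, adjusted p = 0.00975). Of 23 alternative activation genes, 0 were higher and 3 lower, a share above the 2.8% of all tested genes called lower. Among the 3 were Tgm2, a transglutaminase (-0.57 ± 0.12, adjusted p = 0.00603), and Alox15, a lipoxygenase of resident macrophages (-2.65 ± 0.72, adjusted p = 0.0268).

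Lysosomal genes went in both directions with all 10 libraries. Of 70 genes of lysosomal hydrolases and membrane proteins, 5 were higher and 2 lower, with a median log2 change of 0.16. The shares were 7.14% higher and 2.86% lower, against 1.62% and 2.8% of all tested genes. Without the 3 libraries 0 were called, and the median was -0.001. Gm2a, the activator protein for ganglioside breakdown, was at 1210, 1240, 1130, 1090 and 1110 CPM in knock-in 1 to 5 and at 948, 414, 807, 945 and 744 CPM in wild-type 1 to 5. It changed by 0.59 ± 0.12 (adjusted p = 0.00603), and by 0.48 ± 0.12 without the 3 libraries (adjusted p = 0.0723). The groups did not overlap, and wild-type 2 was lowest. Scarb2, the receptor that carries glucocerebrosidase to lysosomes, lay at 247 to 278 CPM in knock-in and 274 to 331 CPM in wild-type (-0.25 ± 0.06, adjusted p = 0.0138). Sort1, the sorting receptor sortilin, was lower too (-0.81 ± 0.24, adjusted p = 0.039). Nagpa, which uncovers the mannose 6-phosphate signal, was higher (0.32 ± 0.09, adjusted p = 0.0289).

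The V-ATPase, the proton pump of lysosomes, had 2 of 20 tested subunits higher and 0 lower with all 10 libraries, with a median of 0.25. The share higher was 10.0%, against 1.62% of all tested genes. Without the 3 libraries 0 were called and the median was 0.118. Atp6v0c was at 1950 to 2060 CPM in knock-in, 1510 to 1910 CPM in 4 wild-type libraries and 933 CPM in wild-type 2 (0.38 ± 0.12, adjusted p = 0.0448). Atp6v1f was higher by 0.37 ± 0.10 (adjusted p = 0.0315). The mean log2 level of the 20 subunits was 7.494 to 7.608 in knock-in, 7.308 to 7.476 in the other wild-type libraries and 6.622 in wild-type 2. Of 42 autophagy genes, 0 were higher and 1 lower (2.38%, against 2.8% of all tested genes). The 1 was the WD-repeat gene Wipi1 (-0.50 ± 0.13, adjusted p = 0.0247). Of 38 genes linked to LRRK2, such as its substrate Rabs, 2 were higher and 0 lower with all 10 libraries. The share higher was 5.26%, against 1.62% of all tested genes. The 2 were Rab35 (0.21 ± 0.05, adjusted p = 0.0179) and Rab3a (0.37 ± 0.11, adjusted p = 0.0475). Rab35, a substrate of LRRK2, was at 88.7 to 93.7 CPM in knock-in and 75.6 to 86.4 CPM in wild-type, without overlap, and was not called without the 3 libraries (0.20 ± 0.07, adjusted p = 0.13).

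Of all calls with 10 libraries, 63.4% were lower, and the lists of uptake and sensing are read beside that. Of 42 phagocytic, Fc-gamma and scavenger receptors, 0 were higher and 5 lower (11.9%, against 2.8% of all tested genes), with a median of -0.165. With 7 libraries 0 were called (median -0.059). Trem1, Clec4n and Clec4d, receptors that amplify or start inflammatory signals, were at 3.94, 805 and 830 CPM in wild-type 2. In the other libraries they were at no more than 0.216, 71.7 and 239 CPM. Msr1, scavenger receptor A, was at 263 to 323 CPM in knock-in and 272 to 786 CPM in wild-type. It changed by -0.70 ± 0.19 (adjusted p = 0.0259), and by -0.39 ± 0.21 without the 3 libraries (adjusted p = 0.322). Of 21 complement genes, 0 were higher and 2 lower (9.52%), C4a and C4b, which share most of their sequence, so that reads could be split between them. C4b was at 104 to 473 CPM in knock-in and at 572, 2670, 408, 393 and 600 CPM in wild-type 1 to 5.

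Of 34 Toll-like receptor and signalling genes, 1 was higher (2.94%) and 2 lower (5.88%) with all 10 libraries, against 1.62% and 2.8% of all tested genes. Without the 3 libraries 0 were higher and 1 lower, Irak4 (2.94% called, against 0.181% of all tested genes). Tlr7, the receptor for single-stranded RNA, was at 36.8, 40.4, 49.9, 48.7 and 44.1 CPM in knock-in 1 to 5 and at 53.5, 87.3, 76.7, 61.3 and 77.8 CPM in wild-type 1 to 5. All wild-type libraries lay above all knock-in libraries. It changed by -0.70 ± 0.14 (adjusted p = 0.00422), and by -0.67 ± 0.17 without the 3 libraries (adjusted p = 0.0796). Pycard, the inflammasome adaptor ASC, was higher by 0.28 ± 0.08 (adjusted p = 0.0356).

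In oxidative phosphorylation, of 76 genes encoded in the nucleus, 5 were higher (6.58%, against 1.62% of all tested genes) and 0 lower with all 10 libraries. Under TMM scaling the sign was positive in all 76, against 48.9% of all tested genes, with a median of 0.198. Without the 3 libraries 0 were called, 69 of 76 were positive (90.8%, against 48.8%), and the median was 0.102. A mostly positive sign was not particular to this list. It was found in 71 of 80 cytosolic ribosomal protein genes with all 10 libraries and in 72 without the 3. Among the 20 V-ATPase subunits it was found in 18 and 16. The mean log2 level of the 76 genes overlapped between the groups, at 6.207 to 6.378 in knock-in and 5.902 to 6.264 in wild-type. Cox6a1, a subunit of cytochrome oxidase, was at 143 to 159 CPM in knock-in and 103 to 137 CPM in wild-type (0.35 ± 0.10, adjusted p = 0.0351). The complex I subunits Ndufs7 and Ndufs8 and cytochrome c1 (Cyc1) were higher by 0.38 ± 0.11, 0.36 ± 0.10 and 0.31 ± 0.09. Of 13 mitochondrially encoded genes, 0 were higher and 1 lower (7.69%, against 2.8% of all tested genes). The 1 was mt-Nd5 (-0.54 ± 0.16, adjusted p = 0.0393), and the list median was -0.302.

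NRF2 target genes answer to oxidative stress. Of 26, 0 were higher and 6 lower with all 10 libraries (23.1% lower, against 2.8% of all tested genes). Without the 3 libraries 0 were called, and the medians were -0.21 with all 10 and -0.01 without the 3. Slc7a11, the cystine transporter, was at 11.3, 11.6, 18.6, 9.05 and 8.71 CPM in knock-in 1 to 5 and at 23.3, 209, 14.6, 10.6 and 17.9 CPM in wild-type 1 to 5. The groups overlapped outside wild-type 2. It changed by -2.22 ± 0.46 (adjusted p = 0.00592), and by -0.27 ± 0.33 without the 3 libraries (adjusted p = 0.719). Me1, which makes NADPH, and Gsr, glutathione reductase, changed by -2.34 ± 0.50 and -0.57 ± 0.13. Of 26 genes of glycolysis and hypoxia, 0 were higher and 2 lower (7.69%), Egln3 and Pfkfb3. The list medians were -0.087 with all 10 libraries and 0.259 without the 3. Egln3, an oxygen sensor, was at 33.8 CPM in wild-type 2 and 1.72 to 5.81 CPM elsewhere.

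Lipid genes were called in both directions. Of 32 lipid handling genes, 3 were higher (9.38%, against 1.62% of all tested genes) and 2 lower (6.25%, against 2.8%) with all 10 libraries. Without the 3 libraries 0 were called. Abcg1, which exports cholesterol, was at 342 to 420 CPM in knock-in and 110 to 294 CPM in wild-type. It changed by 0.73 ± 0.17 (adjusted p = 0.00975), and by 0.46 ± 0.17 without the 3 libraries (adjusted p = 0.168). Lpl, lipoprotein lipase, was at 1820 to 2290 CPM in knock-in, 1180 to 1630 CPM in 4 wild-type libraries and 674 CPM in wild-type 2. It changed by 0.66 ± 0.16 (adjusted p = 0.0134), and by 0.54 ± 0.17 without the 3 libraries (adjusted p = 0.127). Cpt1a, which brings fatty acids into mitochondria, was lower (-0.37 ± 0.09, adjusted p = 0.0165, and -0.38 ± 0.11 without the 3 libraries, adjusted p = 0.12). Of 25 sterol synthesis genes, 1 was higher (4.0%), Pmvk (0.30 ± 0.09, adjusted p = 0.0468). The list median was 0.276 with all 10 libraries and 0.015 without the 3.

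Several stress and matrix genes were highest in wild-type 2. Of 26 immediate early and heat-shock genes, 1 was higher and 3 lower with all 10 libraries. Those shares were 3.85% and 11.5%, against 1.62% and 2.8% of all tested genes. The lower ones were the activity-induced factors Nr4a1, Egr1 and Egr3. Nr4a1 and Egr1 were at 12.0 and 19.2 CPM in wild-type 2 and at most 3.14 and 9.05 CPM elsewhere. Jund, an AP-1 subunit, was higher (0.48 ± 0.13, adjusted p = 0.0227). Among 26 stress response genes of protein folding and translation, 1 was higher (3.85%), the serine synthesis gene Psat1 (0.60 ± 0.14, adjusted p = 0.0117). Of 29 matrix remodelling genes, 1 was higher (3.45%) and 4 lower (13.8%). Fn1, fibronectin, was at 444, 428, 408, 262 and 259 CPM in knock-in 1 to 5 and at 450, 3240, 581, 434 and 539 CPM in wild-type 1 to 5. Thbs1, thrombospondin, was at 50.0 to 87.0 CPM in knock-in and 60.2 to 763 CPM in wild-type. It changed by -1.91 ± 0.46 (adjusted p = 0.0127), and by -1.22 ± 0.50 without the 3 libraries (adjusted p = 0.194). Of 40 proliferation genes, 80 ribosomal protein genes and 17 clock genes, 0 were called in either comparison, against 4.42% and 0.181% of all tested genes. The proliferation medians were -0.224 with all 10 libraries and -0.517 without the 3. The sign was positive in 8 and 3 of the 40, against 48.9% and 48.8% of all tested genes. The mean log2 level of the 40 overlapped between the groups, at 2.296 to 2.785 in knock-in and 2.249 to 3.15 in wild-type. The medians were 0.077 and 0.112 for ribosomal protein genes and -0.054 and 0.041 for clock genes.

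**Figure D5:**
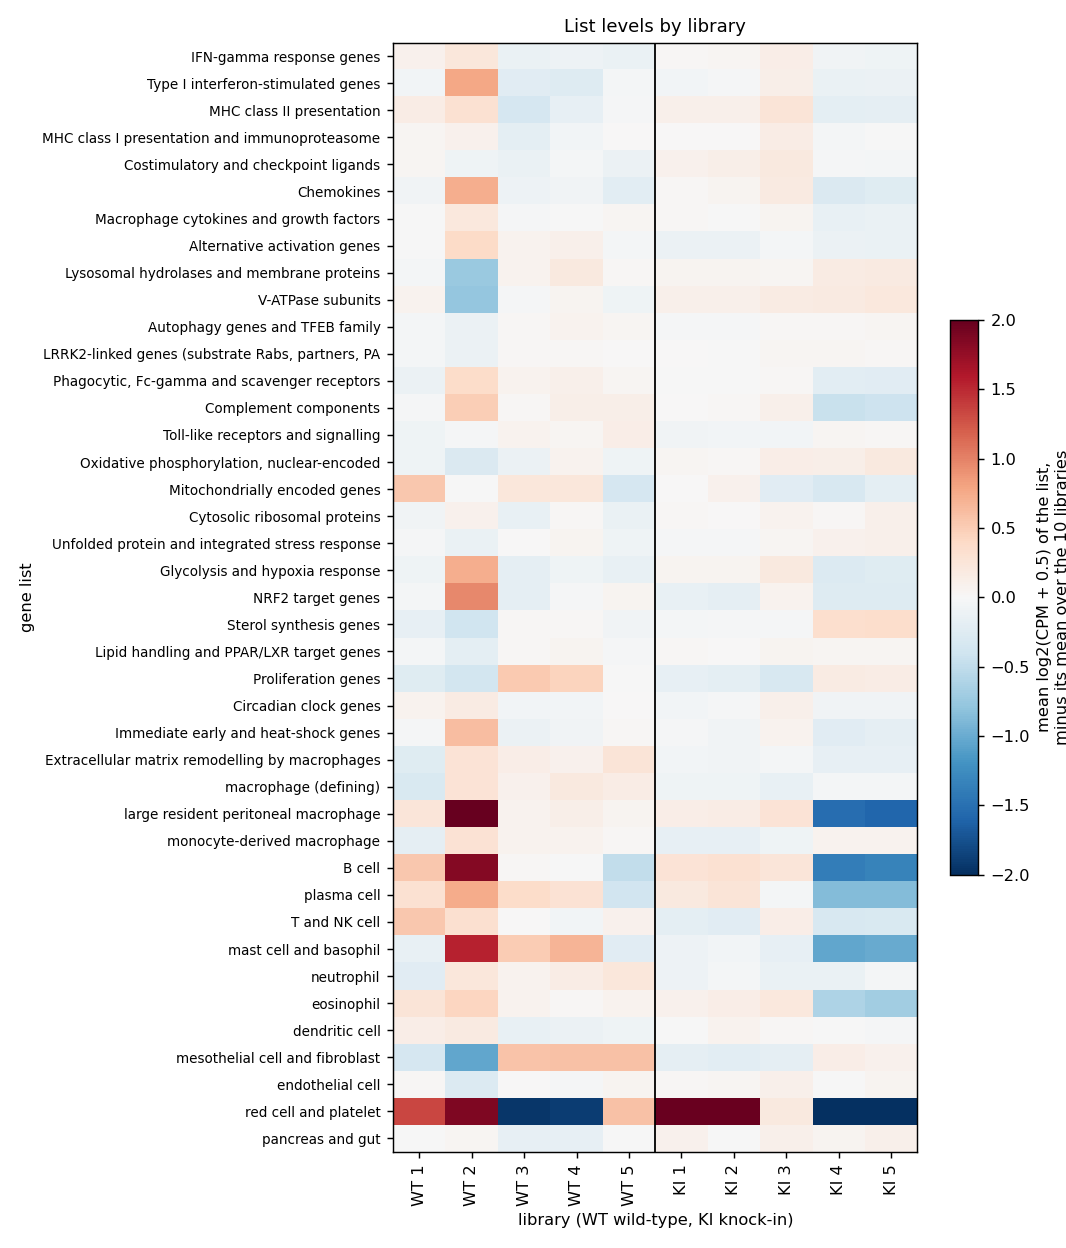
Mean log2(CPM + 0.5) of each gene list in each library, minus its mean over the 10 libraries (color), with wild-type on the left and knock-in on the right of the line. Wild-type 2 stands apart from the other 4 wild-type libraries in the lysosomal, V-ATPase, NRF2, glycolysis and resident macrophage rows, and knock-in 4 and 5 are low in the resident macrophage, B cell and mast cell rows.

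Markers of other cell types moved with the same libraries, and their part in the results above was not tested. Of 17 markers of large resident peritoneal macrophages, 7 were lower with all 10 libraries and 0 without the 3, with medians of -1.235 and -0.069. The 7 were 41.2% of the list, against 2.8% of all tested genes called lower. Prg4, lubricin, was at 91.4 to 173 CPM in 7 libraries, 5.43 and 6.17 CPM in knock-in 5 and 4 and 1479 CPM in wild-type 2. Gata6, the factor that defines these cells, was at 1.26 to 2.755 CPM in knock-in and 3.087 to 8.375 CPM in wild-type. Both genes were chosen after their values were seen. Of 12 tested mast cell and basophil markers, 0 were higher and 3 lower (25.0%). The sum of the 12 was at 1.83 and 1.91 CPM in knock-in 4 and 5, 81.6 CPM in wild-type 2 and 9.30 to 33.8 CPM elsewhere. Of 24 B cell markers, 0 were called in either comparison. Their median log2 change was -0.972 with all 10 libraries and 0.185 without the 3, with a positive sign in 3 and 16 of the 24. Red cell and platelet genes summed to 1.45 to 2.09 CPM in knock-in 4 and 5 and wild-type 3 and 4 and to 47.7 to 363 CPM in the other 6.

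Of 31 T and NK cell markers, 0 were higher and 2 lower with all 10 libraries, and of 14 plasma cell markers 0 and 2. The shares lower were 6.45% and 14.3%, against 2.8% of all tested genes. The T and NK cell list had median log2 changes of -0.712 with all 10 libraries and -0.997 without the 3. Those of the plasma cell list were -0.786 and 0.231. Of 21 mesothelial and fibroblast markers, 1 was higher and 0 lower with all 10 libraries and 2 and 0 without the 3. The called ones were Krt18 and Krt8, while most members had a negative sign. The list's median log2 changes were -0.656 with all 10 libraries and -1.474 without the 3. The sign was positive in 14.3% of its members in both, against 48.9% and 48.8% of all tested genes. The shares called were 4.76% and 9.52%, against 4.42% and 0.181% of all tested genes. The summed level of that list was 191 to 207 CPM in knock-in 1, 2 and 3, where both keratins were high. It was 353 and 364 CPM in knock-in 4 and 5 and 170, 89.8, 428, 457 and 576 CPM in wild-type 1 to 5. Of the 9 markers that define macrophages, 0 were called in either comparison.

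The genotype difference was compared with that in old females labelled untreated, as an interaction in the same edgeR fit. With all libraries 2394 genes were called (10.8%), 1405 with a more positive and 989 with a more negative knock-in effect in the IFN-γ libraries. Scaled with RLE factors, 958 were more positive and 1325 more negative. A stricter filter on low counts gave 1100 and 1705, and summing libraries that share V usage 426 and 688, so the direction of the majority depends on the processing. The count was 1265 without wild-type 2, 3720 without wild-type 4 and 1459 without knock-in 5. Without 1 of the untreated libraries it was 1175, 1563 and 1517 for wild-type 1, 2 and 5, and 558, 1319 and 3795 for knock-in 1, 2 and 4. Without the 3 libraries 3 genes were called, the 3 having been called with all libraries too. Those with a proper name were Gnat3 and Gpr34, and the third was the V segment Igkv6-20. Gnat3 was at 0.126 to 0.267 CPM in untreated knock-in and 0.125 to 0.257 CPM in untreated wild-type libraries, and its interaction was 1.96 ± 0.58 (adjusted p = 0.0257), or 2.69 ± 0.52 without the 3 (adjusted p = 0.0494). Gpr34 was at 0.247 to 0.429 and 0.239 to 0.664 CPM in the untreated groups, with an interaction of 1.62 ± 0.49 (adjusted p = 0.0285), or 2.41 ± 0.45 without the 3 (adjusted p = 0.0439). Both interactions were lost without knock-in 3 (0.88, adjusted p = 0.212, for Gnat3 and 1.11, adjusted p = 0.11, for Gpr34) and without untreated knock-in 2 or untreated wild-type 5, with adjusted p-values of 0.0531 to 0.0631. Gpr34 was also lost without wild-type 3 or 5, untreated wild-type 3 or untreated knock-in 1. Irak4 was at 31.6 to 37.7 CPM in untreated knock-in and 48.1 to 58.0 CPM in untreated wild-type libraries, and its interaction was 0.11 ± 0.09 (adjusted p = 0.46).

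The interaction with sex, over old IFN-γ libraries, called 3 genes with all libraries (0.0135%), 1 with a more positive and 2 with a more negative knock-in effect in females. Without the 3 libraries it called 3, of which 2 were the same, Atp9a and Igkv8-30. Without adjustment, 1671 and 1104 genes had p under 0.05, and DESeq2 called 32 with all libraries. The edgeR count was 8, 5 and 7 without female wild-type 1, 4 and 5, and 6, 9 and 10 without male knock-in 2, 3 and 5. Atp9a, a flippase of endosomes, was at 5.75, 5.35, 4.25, 2.27 and 2.83 CPM in female knock-in 1 to 5 and at 1.17, 3.51, 2.45, 1.95 and 1.49 CPM in female wild-type 1 to 5. In males it was at 0.864 to 2.14 CPM in knock-in and 2.87 to 4.11 CPM in wild-type. The direction was thus opposite in the sexes, with an interaction of 2.41 ± 0.45 (adjusted p = 0.0131), or 2.99 ± 0.46 without the 3 libraries (adjusted p = 8.56e-04). The call with all libraries was lost without female knock-in 1 (2.26, adjusted p = 0.0606) or 2 (2.29, adjusted p = 0.0507). Within females Atp9a was called without the 3 libraries (1.53 ± 0.35, adjusted p = 0.0336) and not with all 10 (0.95 ± 0.31, adjusted p = 0.064). Irak4 was at 37.4 to 43.0 CPM in male knock-in and 55.6 to 58.5 CPM in male wild-type libraries, and its interaction with sex was -0.02 ± 0.09.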

How the data were processed

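Read counts per gene, whole numbers, were deposited by the authors. The submitters' processing notes list STAR 2.7.9a, GRCm39 and DESeq2 1.40.2, with no counting tool, annotation or strand setting. The FPKM table was not used. filterByExpr kept 22147 of 56748 genes (99.992% of counts). After TMM scaling, edgeR 4.0.16 (R 4.3.3) fitted all 63 libraries (60 without the 3), with 1 coefficient for each of 16 groups, and its quasi-likelihood test gave two-sided p-values, adjusted over all tested genes by the Benjamini-Hochberg method. The code was tested on simulated data. Symbols came from a GRCm38 annotation. Genes named were Lrrk2, Xist and Ddx3y, up to 12 called each way whose higher group averaged 1 CPM or more (with all 10 libraries, and again in both comparisons), up to 4 called per pathway list and up to 5 each way per interaction, and the text marks those outside this rule, except members of lists given as uncalled examples and markers used to check labels. The comparison, members and lists were chosen with earlier results of these data known. Alternatives were DESeq2 1.42.0, RLE scaling, 2 other filters, other sets of libraries and a replicate block. Nothing in the labels says that libraries of a group came from separate animals, so p-values measure the spread between libraries. Items withheld for evaluation are not reported here.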

Additional observations from a re-analysis of the deposited data

Results flagged for a closer look

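Values that stood far from the others of their group were found in 37 of 256 sets of 5 libraries examined, by the gap to the nearest value over the range (above 0.71), for the levels of the gene lists and of the named genes on a log2(CPM + 0.5) scale. Chance gives about 1 in 20 in sets that are independent and not chosen by their values. Here most sets are genes named because they were called, many with a call that was lost without wild-type 2, so the count cannot be read against that rate. Of the 37, 32 were in wild-type 2, 4 in knock-in 3 and 1 in wild-type 5.

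In wild-type 2, mean log2 levels were far above the other wild-type libraries for type I interferon-stimulated genes (7.23), chemokines (4.53), macrophage cytokines (3.61), glycolysis and hypoxia genes (7.60), NRF2 targets (7.92), immediate early genes (5.46) and large resident macrophage markers (6.08). They were far below for lysosomal genes (7.42), V-ATPase subunits (6.62) and endothelial markers (1.28). Genes far above were Slpi (2200 CPM), Fn1 (3240 CPM), C4b (2670 CPM), Tgm2 (1710 CPM), Clec4d (830 CPM), Clec4n (805 CPM), Slc7a11 (209 CPM), Gsr (202 CPM), Fpr1 (179 CPM), Ddx58 (117 CPM), Alox15 (93.8 CPM) and Serpinb2 (83.1 CPM). Lower-level genes far above were Sema3c (34.5 CPM), Egln3 (33.8 CPM), Gsta3 (18.1 CPM), Ccl24 (12.3 CPM), Nr4a1 (12.0 CPM), Gp6 (8.30 CPM), Trem1 (3.94 CPM) and Cxcl3 (1.80 CPM), and Speg was far below (0.614 CPM).

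Knock-in 3 stood above the other knock-in libraries for alternative activation genes (3.74) and clock genes (3.22) on the mean log2 scale and for Gsr (89.7 CPM) and Sh2d7 (1.38 CPM). Pou2f3 in wild-type 5 (0.0492 CPM) and Sh2d7 in wild-type 2 (0.0195 CPM) were listed because the other 4 wild-type libraries were at a count of 0, where any count stands apart.

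Differences between groups in the genotype effect were found for Gnat3 (1.96 on the log2 scale) and Gpr34 (1.62) between the treatment labels, and for Atp9a (2.41) between the sexes, each by the interaction test. All were lost with a replicate block (edgeR adjusted p = 0.259, 0.303 and 0.156 in that order). Gnat3 and Gpr34 were lost without knock-in 3 (adjusted p = 0.212 and 0.11). Atp9a was lost when libraries sharing V usage were summed (adjusted p = 0.0871).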

How the results depend on the processing

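The same-number libraries of the 2 genotypes deviated together in 4 of 5 pairs (r from -0.55 to 0.54, over genes), and 2 of 5 correlated best with their own number, so not every pair was over 0.1, and the numbers were not taken to pair the samples. With a replicate block 0 genes were called with all 10 libraries, 1 for the treatment interaction and 0 for the sex interaction. With all 10 libraries (980 called), DESeq2 called 1677, no filter 497, the 10 libraries alone in the fit 1, summing libraries that share V usage (chosen after seeing the data) 82, leaving out knock-in 4 and 5 152 and leaving out wild-type 2 40. Leaving out single libraries gave 40 to 2208. With 7 libraries (40 called), DESeq2 called 231 (82 higher, 149 lower), the 7 libraries alone 13 and summing 15, and leaving out single libraries gave 8 to 653. For the treatment interaction (2394 called), no filter gave 1466, leaving out the 3 libraries 3, leaving out knock-in 4 and 5 (also chosen after seeing the data) 936, summing 1114 and leaving out single libraries 558 (untreated knock-in 1) to 3795 (untreated knock-in 4). For the sex interaction (3 called), DESeq2 gave 32, RLE scaling 5, the stricter filter 7, summing 0 and leaving out single libraries 2 to 10. Among the alternatives to each comparison no called named gene changed sign, while between the comparisons 5 genes called with all 10 libraries had the opposite sign with 7, uncalled: Vmn2r26 (0.28), Sema3c (0.14), Ccl24 (0.13), Clec4n (0.08) and Egln3 (0.15). Of 82 named calls with all 10 libraries, 8 held without wild-type 2 and 56 without knock-in 3. With the 10 libraries alone in the fit, or with a replicate block, 0 of the 78 tested held. In 30 fits of all groups without the block, Irak4 and Slc38a1 were called in all, with 3 V segments. Summing libraries whose counts agree within sampling noise gave no value, since none did. The labels do not give the number of animals, and depth limits genes at a few counts, where a group at 0 gives a lower bound on the fold alone.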
